A study of Mus musculus with 20 samples.

Results

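The genes described here are 10 members of the Bcl2 family, the proteins that set whether a cell's mitochondria are permeabilised during apoptosis. They were taken by symbol from the table of read counts per gene, in which all 10 were found among 33243 genes, and all 10 were among the 16632 genes tested. Bcl2a1a, Bcl2a1b, Bcl2a1d, Bcl2l1 and Mcl1 encode pro-survival proteins, Bcl2l11, Bbc3 and Bid encode BH3-only proteins, and Bax and Bak1 encode the effectors that form pores in the outer mitochondrial membrane. RNA was sequenced from dural CNS-associated macrophages (dCAMs), macrophages of the outer meningeal layer, sorted from the cranial dura mater as CD45int CD11b+ CD206int-high cells. All 10 mice had the genotype Ccr2creERT2/+ R26tdT/tdT, in which tamoxifen turns on the red reporter tdT for good in cells that express Ccr2, the chemokine receptor of circulating inflammatory monocytes. All mice had received the CSF1R inhibitor BLZ945 at 200 mg/kg on 7 days, which depletes macrophages, and tamoxifen at 2 mg per day on the last day of gavage and 2 and 4 days later. At 8 weeks after the last gavage, 5 mice were given lipopolysaccharide (LPS) at 2.5 mg/kg and 5 were given PBS (CTL), and dura was taken 12 h later. Each mouse gave 1 library of tdT+ and 1 of tdT- dCAMs, which made 4 groups of 5 libraries: tdT- CTL, tdT+ CTL, tdT- LPS and tdT+ LPS. The Ccr2 locus drives the recombinase and the R26 locus the reporter, so that a tdT- cell may be one that was never of monocyte origin, one that escaped recombination, or one that arose from a monocyte outside the tamoxifen window. The labels give no age for single mice, and by the methods of the study gavage began in young adults. Both sexes were used, with 3 female and 2 male mice among CTL and 2 female and 3 male mice among LPS animals.

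Bcl2 family proteins meet on the outer mitochondrial membrane. Pro-survival members hold the effectors Bax and Bak1 in check, BH3-only members relieve that restraint or activate the effectors directly, and open effector pores release cytochrome c, which leads to caspase activation. In myeloid cells, Mcl1 and the A1 proteins encoded by the Bcl2a1 copies are short-lived and are known to be induced by inflammatory signals. Protein level, phosphorylation and location govern these proteins as much as transcript level does, and only transcript level was measured here.

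The A1 genes of the mouse are recent duplicates, and the near identity of the copies bears on every Bcl2a1 value that follows. In the GENCODE M21 annotation of build GRCm38, Bcl2a1d lies at chr9:88723285-88731914 on the minus strand, Bcl2a1a at chr9:88956900-88962419 and Bcl2a1b at chr9:89199209-89207827, both on the plus strand, each with 2 exons. The coding sequences are 516 bases long in all 3 copies, and 12 of those positions differ between copies. The first 60 coding bases hold 6 of these positions and are shown because they carry much of what can tell the copies apart. Capitals mark the positions at which the 3 copies are not all the same.
Bcl2a1a: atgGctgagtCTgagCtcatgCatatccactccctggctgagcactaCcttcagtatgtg
Bcl2a1b: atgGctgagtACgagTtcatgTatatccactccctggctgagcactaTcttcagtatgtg
Bcl2a1d: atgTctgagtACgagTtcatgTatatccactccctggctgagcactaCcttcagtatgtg
Of the 50-base words in each annotated transcript, 31.0% of those of Bcl2a1a, 20.8% of those of Bcl2a1b and 20.5% of those of Bcl2a1d occurred in the transcripts of no other gene. A 50-base read from the rest of the transcript matches at least 1 other gene. That gene is not always another of the 3 copies. Of the 768 words of Bcl2a1b, 442 were shared with Bcl2a1a or Bcl2a1d, and its other shared words only with Bcl2a1c or Gm29094. How such reads were counted is not given in the sources used here, so the 3 copies are reported both singly and as a sum, and the single values are uncertain. Bcl2a1b also shares 401 exon bases on its strand with Gm29094, which was not analysed here.

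The copies were as alike upstream. The 250 bases before the RefSeq start (GRCm38.p6) were identical at 205 of 206 aligned positions between Bcl2a1a and Bcl2a1b, at 238 of 250 between Bcl2a1a and Bcl2a1d, and at 198 of 206 between Bcl2a1b and Bcl2a1d. They are printed because the copies differed in level below. Capitals mark the word GAGGAAGT, a purine-rich core of the kind bound by PU.1, the ETS factor of macrophages. The windows lie at chr9:88956670-88956919, chr9:89199023-89199272 and chr9:88731851-88732100, the last on the minus strand. The RefSeq starts lie inside the GENCODE gene spans given above, so the last bases of each window fall within the GENCODE gene.
Bcl2a1a: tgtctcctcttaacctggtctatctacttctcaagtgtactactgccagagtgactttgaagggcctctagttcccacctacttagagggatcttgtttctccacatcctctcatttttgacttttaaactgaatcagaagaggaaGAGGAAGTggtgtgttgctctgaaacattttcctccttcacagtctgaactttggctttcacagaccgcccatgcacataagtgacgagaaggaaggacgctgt
Bcl2a1b: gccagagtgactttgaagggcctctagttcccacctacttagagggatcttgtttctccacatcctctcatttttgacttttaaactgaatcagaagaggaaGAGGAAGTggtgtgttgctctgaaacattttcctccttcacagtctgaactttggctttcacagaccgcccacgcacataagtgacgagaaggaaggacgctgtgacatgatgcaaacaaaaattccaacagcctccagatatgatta
Bcl2a1d: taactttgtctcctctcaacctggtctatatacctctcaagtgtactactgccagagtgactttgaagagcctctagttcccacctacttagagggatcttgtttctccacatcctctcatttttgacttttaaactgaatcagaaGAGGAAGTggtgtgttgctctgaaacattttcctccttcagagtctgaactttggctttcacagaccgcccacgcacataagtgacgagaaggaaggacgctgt
Searched on both strands, this word was in the windows of 4 of the 10 members (the 3 Bcl2a1 copies, and Bak1 on the opposite strand). It was in a window of 2.79% of 27025 mouse genes, and in 2.44% of 32851 mouse windows of the same length. The 3 copies are near identical here, so their matches are not separate findings. The word was chosen after the sequences had been read. The kappaB consensus, a motif of 10 letters for NF-kB, was in no Bcl2a1 window, in 1 of 3 windows of Bcl2l1 and in 1 of 3 windows of Bbc3, against 3.90% of all windows. Such matches describe these letters only.

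The libraries held 6017650 to 18925908 counts, with 6017650 to 12208203 in CTL and 12073566 to 18925908 in LPS mice, so that depth moved with treatment. The 5 tdT- CTL libraries stood apart. CPM stands for counts per 1000000. Of 5823 well-measured genes, those whose log2 CPM averaged 4 or more, 1.72% to 14.9% were at 3 counts or fewer in each of them, against 0% to 0.635% in the other 15, and the highest shares were those of mice 174 and 179. Each of 14 macrophage markers was above 3 counts in at least 1 library of every group, with Mrc1 (CD206) at 818 to 2259 (tdT-) and 1661 to 3384 (tdT+) CPM in CTL mice and 551 to 699.9 (tdT-) and 916 to 1337 (tdT+) in LPS mice. Markers of other myeloid cells moved with the groups. The summed CPM of 6 dendritic cell markers was 618 to 3329 (tdT-) and 51.2 to 77.1 (tdT+) in CTL mice and 262 to 638 (tdT-) and 11.4 to 52.5 (tdT+) in LPS mice, with Xcr1 at 3 counts or fewer throughout. Cd209a alone was at 315 to 2774 CPM in tdT- CTL and 25.5 to 65.1 in tdT+ CTL. Of the 7 monocyte markers, 4 were called lower in tdT+ than in tdT- CTL, Ccr2, Plac8 and Vcan among them, and 1 was called higher, F13a1. The summed CPM of the list was 1708 to 2516 (tdT-) and 1975 to 4341 (tdT+) in CTL mice. In LPS mice it was 1974 to 3744 (tdT-) and 2427 to 3881 (tdT+). Plac8 was at 18.3 to 377 CPM in tdT- CTL and 0 to 1.26 in tdT+ CTL. The summed CPM of 12 neutrophil markers was 164 to 469 (tdT-) and 510.4 to 688 (tdT+) in CTL mice and 467 to 1139 (tdT-) and 512 to 1173 (tdT+) in LPS mice. Among them S100a8 and Mmp8 were called higher with LPS in both populations, whereas Elane stayed at 3 counts or fewer in every library. Lists of non-myeloid cells were also summed. The 5 fibroblast markers were at 10.9 to 3993 CPM in tdT- CTL (median 277) and 128 to 336 in tdT+ CTL. In LPS mice they were at 56.7 to 333 (tdT-) and 88.5 to 313 (tdT+). The erythroid markers reached 344 CPM in tdT- CTL (median 3.19) and at most 19.7 in the other groups. In bulk libraries, fewer cells of a type and less RNA per cell cannot be told apart.

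Mcl1, whose protein is a short-lived guard against Bak1 and Bax, was by far the most abundant member. Scaled to exon length, its mean was 467 (tdT-) and 359 (tdT+) CPM per kb in CTL mice and 599 (tdT-) and 627 (tdT+) in LPS mice. With each Bcl2a1 copy taken singly, Bax came next with 86.6, 37.5, 90.8 and 85.6 CPM per kb in the same order of groups. Bcl2l1 had 18.0, 16.4, 44.2 and 58.9. The 3 Bcl2a1 copies, each taken singly, ran from 9.40 (Bcl2a1a in tdT+ CTL) to 62.6 CPM per kb (Bcl2a1a in tdT- LPS) across the group means. Their sum was not scaled to exon length, so it has no place in this order and Bax is not ranked against it. Of the BH3-only genes, Bid ran from 8.11 to 14.7 CPM per kb across the group means, Bbc3 from 2.14 to 8.11 and Bcl2l11 from 2.90 to 6.37. The pore-former Bak1 was the scarcest member, with group means of 1.09 to 2.75 CPM per kb. The plot of log2 CPM by group shows the members in all 20 libraries.

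**Figure D1:**
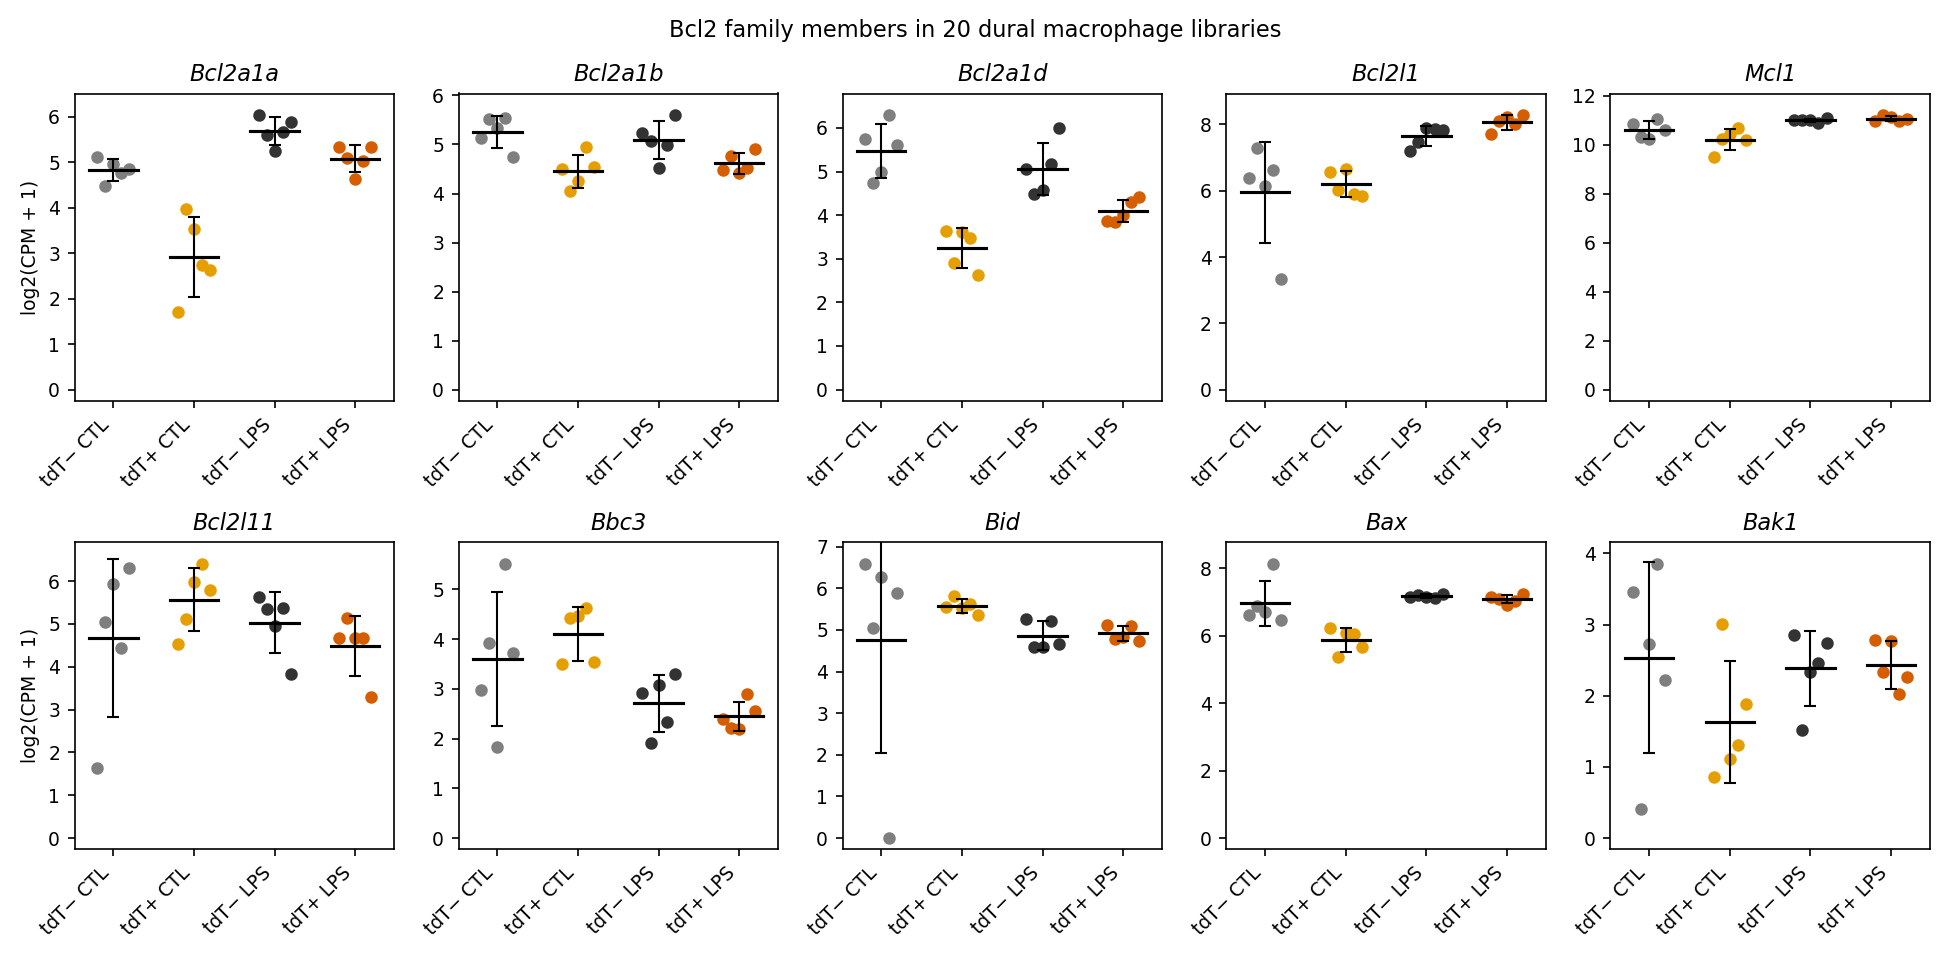
Each panel plots log2(CPM + 1) of 1 member, with 1 point per library, 5 libraries per group; the bar is the mean of the plotted values and the whisker 1 SD. Bcl2a1a, Bcl2a1d and Bax sit lower in tdT+ CTL than in tdT- CTL with no overlap, and Bid has 1 tdT- CTL library at 0.

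The main question was whether LPS changed the survival and death genes in either dCAM population. In tdT+ dCAMs, 3 of 10 members rose with LPS: Bcl2a1a, Bcl2l1 and Bax, a pair of pro-survival genes and 1 effector. A gene was called when its edgeR quasi-likelihood test gave an adjusted p (Benjamini-Hochberg over all 16632 genes) under 0.05 and its log2 fold change exceeded 1 in either direction. By that rule 3.37% of all genes tested were called higher and 2.52% lower in this contrast. No member was called lower. The spread of each gene was estimated once over all 4 groups, so a standard error (SE) also takes in libraries outside the contrast. Marker lists moved in the same contrast, in both directions. Of the 14 macrophage markers 2 were called higher and 5 lower, and their summed CPM went from 52608 to 67131 in tdT+ CTL to 22361 to 28131 in tdT+ LPS. Of the 7 monocyte markers 3 were called higher and 1 lower (Ccr2), and of 10 neutrophil markers tested 2 were called higher (S100a8 and Mmp8) and none lower. Their part in the changes of the members was not tested. The libraries of the LPS and CTL groups did not overlap for 7 of the 10 members, 5 higher and 2 lower with LPS, where 17.8% of all genes did not overlap.

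Bcl2a1a showed the largest called rise. Values are given in the order of mice 174, 175, 177, 178 and 179 for CTL and 54, 56, 59, 60 and 61 for LPS. It measured 2.27, 14.8, 10.6, 5.66 and 5.21 CPM in tdT+ CTL and 39.3, 32.9, 23.8, 31.4 and 39.2 CPM in tdT+ LPS libraries. Every LPS library lay above every CTL library. The means were 7.70 ± 4.95 and 33.3 ± 6.42 CPM (SD, n = 5 each), a 4.32-fold difference with a log2 fold change of 2.11 ± 0.47 (SE) and an adjusted p of 0.00683. The tdT+ CTL counts behind these values were low, at 14 to 139 per library.

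Bcl2l1 encodes Bcl-xL, the pro-survival protein that binds both BH3-only proteins and effectors. It measured 94.1, 64.5, 101, 58.6 and 56.9 CPM in tdT+ CTL and 209, 276, 299.7, 258 and 308 CPM in tdT+ LPS. The groups stood well apart. The fold was 3.60, with a log2 fold change of 1.85 ± 0.43 (SE) and an adjusted p of 0.00962.

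Mcl1 measured 719.9, 1202, 1377, 1656 and 1187 CPM in tdT+ CTL and 2022, 2349, 2230.5, 1994 and 2123 CPM in tdT+ LPS. The lowest LPS library was above the highest CTL library, and the CTL libraries were the more scattered. The fitted difference was 1.75-fold (log2 fold change 0.80 ± 0.18 (SE), adjusted p = 0.00546), which passed the adjusted p but lay under the fold limit, so Mcl1 was not called.

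Bax, the cytosolic effector that inserts into mitochondria when activated, measured 73.5, 40.3, 66.9, 64.9 and 49.7 CPM in tdT+ CTL and 140.4, 135, 120.0, 129.6 and 149 CPM in tdT+ LPS. These groups did not overlap either. The fold was 2.28 (log2 fold change 1.19 ± 0.30 (SE), adjusted p = 0.0151). Without LPS mouse 61 the adjusted p was 0.0559, above the threshold, with a log2 fold change of 1.15. Exons of Bax share 192 bases with Gm45808 on the same strand, a gene not analysed here. The other effector, Bak1, ranged over 0.811 to 7.01 CPM in tdT+ CTL and 3.05 to 5.89 CPM in tdT+ LPS, which overlapped.

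The BH3-only genes gave lower values with LPS in tdT+ dCAMs, and none was called. Bbc3, which encodes the p53 target PUMA, measured 10.4, 20.4, 21.2, 23.6 and 10.6 CPM in CTL and 4.23, 3.63, 3.55, 6.49 and 4.88 CPM in LPS libraries. All 5 LPS values were below all 5 CTL values. The log2 fold change was -1.92 ± 0.71 (SE) with an adjusted p of 0.128. The call depended on the fit: the adjusted p was 0.00440 with DESeq2, 0.00713 with edgeR on the tdT+ libraries alone, and 0.0483 when the tdT- CTL libraries of mice 174 and 179 were left out, a setting added after the data were seen. Bid, which caspase-8 cleaves to carry the death receptor signal to mitochondria, ranged over 40.2 to 55.7 CPM in CTL and 25.7 to 34.0 CPM in LPS without overlap. Its log2 fold change was -0.68 ± 0.78 (SE) with an adjusted p of 0.753. The spread in that fit takes in the tdT- CTL library of mouse 178, at 0 counts of Bid. With edgeR on the tdT+ libraries alone the log2 fold change of Bid was again -0.68 and the adjusted p 0.0263. That passed the adjusted p but lay under the fold limit, so it was no call. Exons of Bid share 628 bases with Bcl2l13 on the opposite strand and those of Bak1 share 614 with Ggnbp1, and without strand information reads there cannot be told apart. Bcl2l11, which encodes Bim, ranged over 22.2 to 83.5 CPM in CTL and 8.85 to 34.0 CPM in LPS, and its log2 fold change of -1.14 ± 0.65 (SE) had an adjusted p of 0.364.

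**Figure D2:**
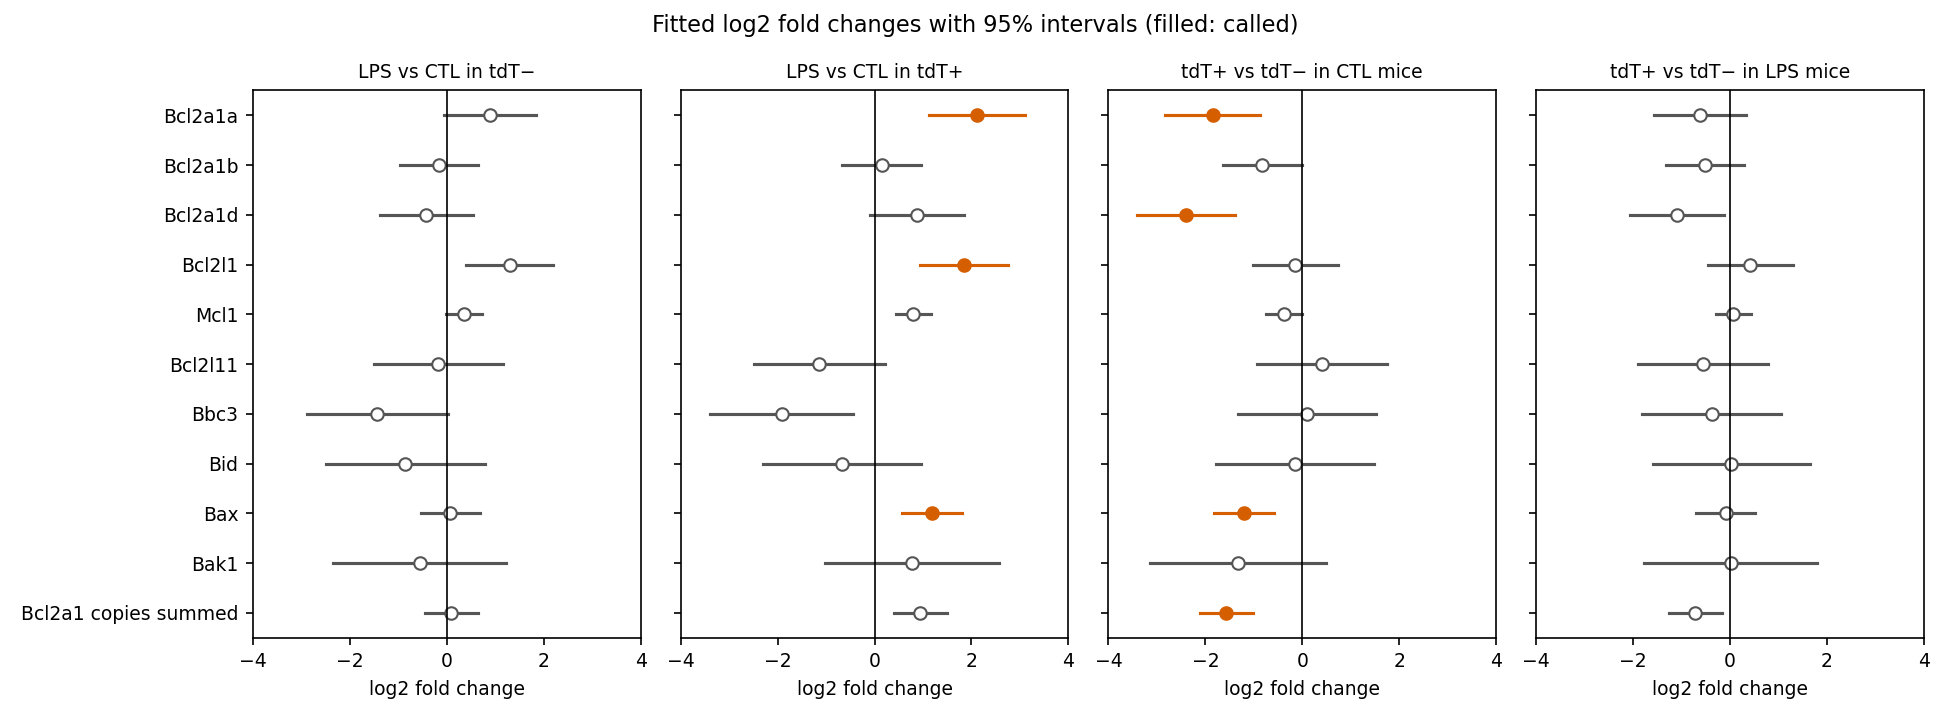
Fitted log2 fold changes (x axis) of the 10 members and of the summed Bcl2a1 copies (y axis) in 4 comparisons, with 95% intervals from the edgeR fit; filled orange points were called. The called members are higher with LPS in tdT+ dCAMs (3 members) and lower in tdT+ than in tdT- dCAMs of CTL mice (3 members).

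In tdT- dCAMs no member was called with LPS, where 7.2% of all genes were called higher and 4.27% lower. With edgeR 1 of the 10 members had an unadjusted p under 0.05, and DESeq2 called 2, Bcl2l1 higher and Bbc3 lower. Only Bcl2a1a had LPS and CTL groups that did not overlap, against 12.6% of all genes. It measured 33.5, 21.2, 30.2, 26.1 and 27.7 CPM in tdT- CTL and 64.2, 47.7, 37.0, 49.5 and 58.1 CPM in tdT- LPS, each CTL value below each LPS value. The log2 fold change was 0.89 ± 0.46 (SE) with an adjusted p of 0.196. Marker lists moved in this contrast too. Of the 14 macrophage markers 3 were called higher and 5 lower. Their summed CPM was 27298 to 56230 in tdT- CTL and 18090 to 23890 in tdT- LPS. Of 7 monocyte markers 1 was called higher and 1 lower, of 10 neutrophil markers tested 3 higher and 0 lower, and of 5 dendritic cell markers tested 0 higher and 1 lower. Their part was not tested.

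Bcl2l1 came closest to a call. It measured 81.8, 156, 69.5, 97.4 and 9.03 CPM in tdT- CTL and 146, 176, 234, 231 and 225 CPM in tdT- LPS. The CTL group ran from a single very low library, mouse 179, to mouse 175, which overlapped the LPS group. The log2 fold change was 1.29 ± 0.43 (SE) and the adjusted p 0.0515. Leaving out mouse 179 gave 1.003 with an adjusted p of 0.0145, and leaving out mouse 175 gave 1.77 with 0.00866, so that either omission led to a call. With the mouse as a random block in limma-voom it was called too (1.67, adjusted p = 0.0109).

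The remaining members of tdT- dCAMs showed wide CTL groups. Bax measured 96.8, 118, 103, 278 and 87.1 CPM in CTL and 141, 147, 140.2, 137 and 150.2 CPM in LPS libraries. Mouse 178 alone exceeded the LPS group, and the other 4 CTL libraries lay below it. The log2 fold change was 0.07 ± 0.29 (SE), with a 95% interval of -0.54 to 0.68. Mcl1 measured 1191 to 2144 CPM in CTL and 1902 to 2158 CPM in LPS, with a log2 fold change of 0.36 ± 0.17 (SE) and an adjusted p of 0.175. Bid was at 0 counts in mouse 178 and at 31.95 to 94.98 CPM in the other 4 CTL mice, against 23.0 to 37.7 CPM with LPS. Without mouse 178 its log2 fold change was -1.14 and its adjusted p 0.0427, a call for lower Bid. Bbc3 ranged over 2.58 to 44.6 CPM in CTL and 2.76 to 8.87 CPM in LPS (log2 fold change -1.44 ± 0.70 (SE), adjusted p = 0.172; 0.0414 with DESeq2). Bcl2l11 ranged over 2.12 to 78.4 and 13.2 to 48.2 CPM, and Bak1 over 0.329 to 13.4 and 1.87 to 6.24 CPM, with overlap in both.

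The response to LPS was then compared between the populations as an interaction, the tdT+ effect minus the tdT- effect. No member was called, against 1.26% of all genes, and 1 of the 10 had an unadjusted p under 0.05. That member was Bax, with a difference of 1.12 ± 0.42 (SE) on the log2 scale and an adjusted p of 0.221. DESeq2 called none as well. Leaving out the tdT- CTL libraries of mice 174 and 179 gave 1.40 with an adjusted p of 0.0454. For Bcl2a1a the difference was 1.22 ± 0.65 (SE) (adjusted p = 0.447), for Bcl2a1d 1.30 ± 0.65 (SE) (0.411), for Bcl2l1 0.56 ± 0.60 (SE) (0.897) and for Mcl1 0.45 ± 0.25 (SE) (0.487). The calls made in tdT+ and not in tdT- dCAMs were therefore not shown to differ between the populations.

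A second question was whether the populations differed at rest. In CTL mice 3 of 10 members were called, all lower in tdT+ than in tdT- dCAMs: Bcl2a1a, Bcl2a1d and Bax. Of all genes, 1.27% were called lower and 3.01% higher in this contrast. The same 3 members had groups that did not overlap, against 3.78% of all genes. Their tdT- CTL values are those of the libraries with many genes at 3 counts or fewer.

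Bcl2a1d differed most. It measured 52.8, 25.7, 30.6, 77.1 and 48.1 CPM in the tdT- and 11.4, 6.47, 11.3, 10.2 and 5.14 CPM in the tdT+ libraries of CTL mice. It was lower in tdT+ cells of all 5 mice. The level was 5.27-fold lower (log2 fold change -2.40 ± 0.49 (SE), adjusted p = 0.00510). With the mouse as a fixed block the adjusted p was 0.0360.

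Bcl2a1a, with the values given above, was likewise lower in the tdT+ library of each of the 5 CTL mice. The level was 3.60-fold lower (log2 fold change -1.85 ± 0.47 (SE), adjusted p = 0.0258). With the mouse as a fixed block the adjusted p rose to 0.0742 at a log2 fold change of -2.08. The call was also lost without CTL mouse 178 (adjusted p = 0.0648) and without any 1 of the LPS mice 54, 56, 59, 60 and 61 (0.0516 to 0.0738), which are in the joint fit but not in that contrast.

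Bax was 2.31-fold lower in tdT+ CTL dCAMs, in all 5 mice (log2 fold change -1.21 ± 0.30 (SE), adjusted p = 0.0210). The call was lost with the mouse as a fixed block (adjusted p = 0.0736). It was lost as well without CTL mouse 178, whose tdT- library was the high one (log2 fold change -0.76, adjusted p = 0.0855), without CTL mouse 175 (0.0504) and without LPS mouse 54 (0.0558). When the fit held the CTL libraries alone, no member was called and the adjusted p of Bcl2a1d was 0.310, at a log2 fold change of -2.35. The summed dendritic cell markers were higher in every tdT- than in every tdT+ CTL library. The summed macrophage markers were at 27298 to 56230 CPM in tdT- and 52608 to 67131 CPM in tdT+ CTL. Of those 14 markers 1 was called higher in tdT+ and 0 lower. The summed fibroblast markers were at 10.9 to 3993 CPM in tdT- and 128 to 336 CPM in tdT+ CTL. Among the 7 monocyte markers, 4 were called higher in tdT- CTL, Ccr2, Plac8 and Vcan among them, and 1 was called lower, F13a1. Vcan was near the floor, at no more than 1.23 CPM in tdT- CTL. The summed monocyte markers were at 1708 to 2516 CPM in tdT- and 1975 to 4341 CPM in tdT+ CTL. The part of these markers in the difference was not tested.

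The other members gave no call in CTL mice. Mcl1 was lower in the tdT+ library of 4 of 5 mice (log2 fold change -0.38 ± 0.18 (SE), adjusted p = 0.195), and Bcl2a1b was lower in 5 of 5 (-0.82 ± 0.39 (SE), 0.207). Bcl2l1 had a log2 fold change of -0.14 with a 95% interval of -1.02 to 0.74. The 95% intervals of Bbc3 (-1.33 to 1.53) and Bid (-1.78 to 1.47) held a log2 fold change of 1 in either direction. That of Bcl2l11 (-0.93 to 1.74) held it on the higher side only, and that of Bak1 (-3.15 to 0.49) on the lower side only.

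In LPS mice no member was called between tdT+ and tdT- dCAMs. Of all genes, 0% were called higher and 0.0301% lower, by an edgeR fit in which 1 member, Bcl2a1d, had an unadjusted p under 0.05. DESeq2 called no member, nor did the edgeR fit to the LPS libraries alone. Bcl2a1d was also the only member whose groups did not overlap, against 1.79% of all genes, with 32.1, 21.4, 23.0, 34.9 and 62.8 CPM in tdT- and 13.7, 13.4, 15.0, 18.7 and 20.4 CPM in tdT+ libraries of LPS mice. Its log2 fold change was -1.10 ± 0.47 (SE) (adjusted p = 0.913). The intervals were narrow for the abundant members. That of Mcl1 ran from -0.30 to 0.43 and that of Bax from -0.70 to 0.52 on the log2 scale. In the 5 LPS mice, 5 members were lower in the tdT+ library of every mouse (Bcl2a1a, Bcl2a1b, Bcl2a1d, Bcl2l11 and Bax). Only Bcl2l1 was higher in every mouse, with a log2 fold change of 0.41 ± 0.42 (SE) and an adjusted p of 1. The share of all genes with the same direction in all 5 mice was not determined, so these counts have no background. The Bcl2a1 copies share reads and are not separate findings. The difference in Bax was small, with a log2 fold change of -0.09 ± 0.29 (SE).

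**Figure D3:**
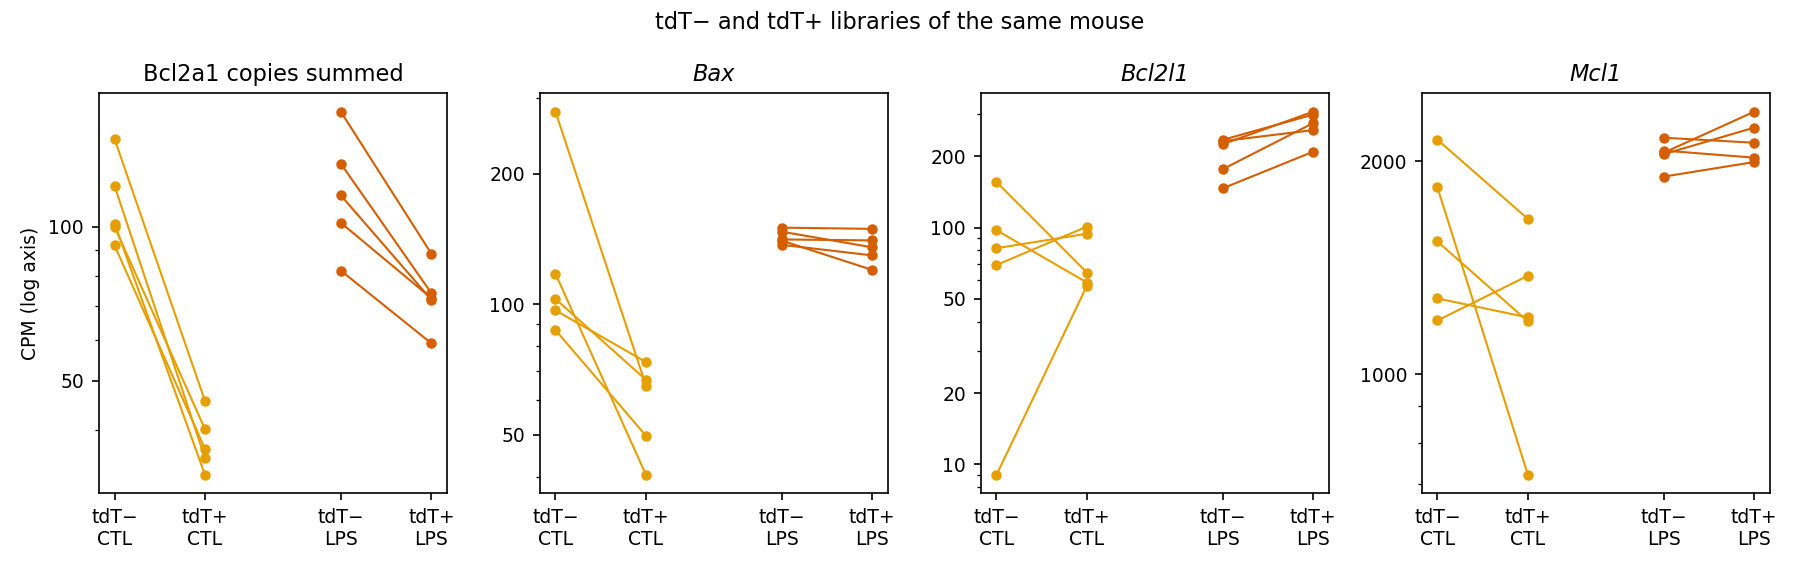
CPM on a log axis in the tdT- and tdT+ libraries of each mouse, joined by a line, for the summed Bcl2a1 copies, Bax, Bcl2l1 and Mcl1; the 5 CTL mice are at the left of each panel and the 5 LPS mice at the right. The lines of the summed Bcl2a1 copies and those of Bax fall from tdT- to tdT+ in all 10 mice, and those of Bcl2l1 rise in the 5 LPS mice.

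The sum of the 3 copies does not depend on which of them a read was given to. It still depends on whether shared reads were dropped or counted more than once, and the copies also share words with Bcl2a1c and Gm29094. The sum was 120.4, 92.0, 100.2, 149 and 102 CPM in tdT- CTL and 35.2, 36.7, 40.1, 45.6 and 32.7 CPM in tdT+ CTL. With LPS it was 133, 102, 82.1, 115 and 168 CPM in tdT- and 74.2, 72.5, 59.1, 72.0 and 88.6 CPM in tdT+ libraries. The tdT+ library was the lower one in all 10 mice. In CTL mice the sum was 2.96-fold lower in tdT+ dCAMs (log2 fold change -1.56 ± 0.27 (SE), adjusted p = 0.00135; 0.0159 with the mouse as a fixed block). The call held in each of the other alternatives run but the fit to the CTL libraries alone, in which the adjusted p was 0.253.

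With LPS the sum in tdT+ dCAMs was 1.93-fold higher without overlap. The log2 fold change of 0.95 ± 0.26 (SE) passed the adjusted p (0.0317) and lay just under the fold limit. The adjusted p was above 0.05 in several alternatives: it was 0.0786 with the mouse as a random block in limma-voom, and it also rose above 0.05 in limma-voom without the block, with no filter on low counts, and without CTL mouse 175 or LPS mouse 54, 56, 60 or 61, with 0.103 (without LPS mouse 61) the highest. The log2 fold change crossed the limit without CTL mouse 178 (1.004) or LPS mouse 59 (1.01). In tdT- dCAMs the sum had a log2 fold change of 0.09 ± 0.26 (SE) with LPS and a 95% interval of -0.45 to 0.64. The difference between these responses was 0.85 ± 0.37 (SE) (adjusted p = 0.306). In LPS mice the sum in tdT+ dCAMs had a log2 fold change of -0.71 ± 0.26 (SE) against tdT- dCAMs (adjusted p = 0.913).

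The copies did not share the change equally. Bcl2a1a supplied 25.2% ± 4.98 (SD, n = 5) of the Bcl2a1 counts in tdT- CTL and 43.5% ± 5.40 in tdT- LPS, with ranges of 17.5% to 30.1% and 34.5% to 48.3%. In tdT+ dCAMs it supplied 20.3% ± 13.3 with PBS and 45.3% ± 4.73 with LPS, with ranges of 6.45% to 40.173% and 40.235% to 53.0%. The LPS and CTL ranges did not overlap in either population, though in tdT+ they all but touched. Bcl2a1b supplied 56.5% ± 11.9 in tdT+ CTL and 32.5% ± 2.98 in tdT+ LPS, also without overlap. On its own level Bcl2a1b had a log2 fold change of 0.14 with LPS in tdT+ (95% interval -0.66 to 0.95) and of -0.16 in tdT- dCAMs (-0.97 to 0.64). Bcl2a1d had 0.87 in tdT+ (adjusted p = 0.323), where its groups did not overlap, and -0.43 in tdT- dCAMs (0.572). These shares are a description chosen after the values were seen, and they depend on how reads shared by the copies were counted.

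**Figure D4:**
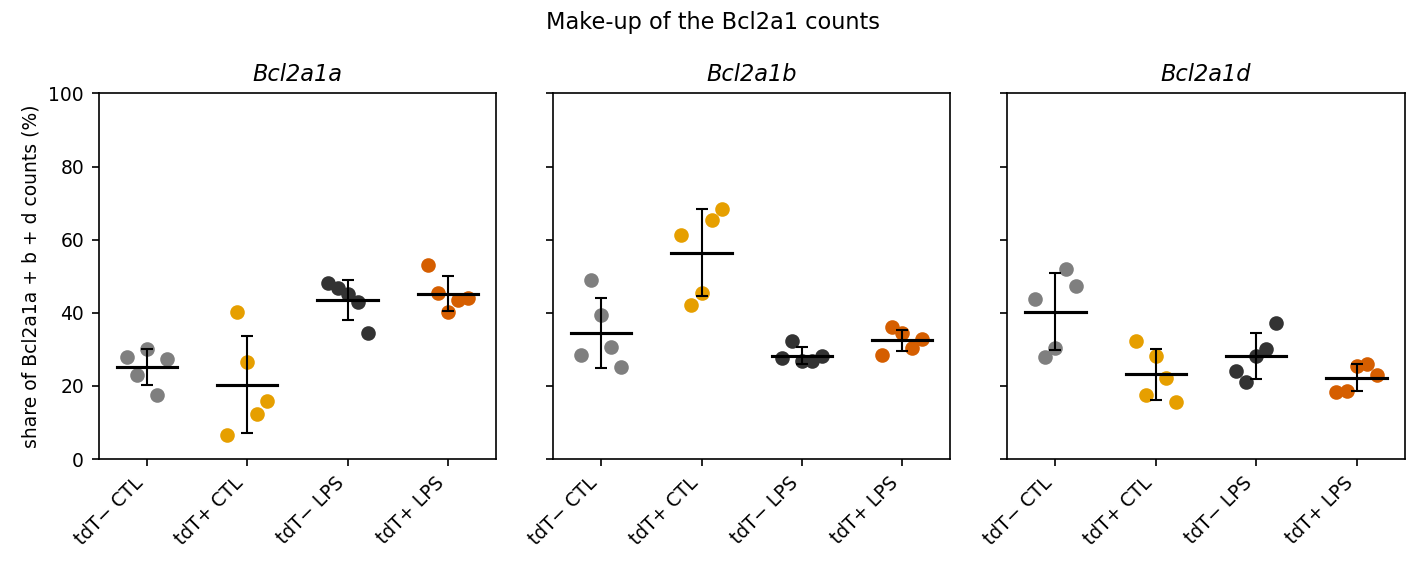
Share of the summed Bcl2a1a, Bcl2a1b and Bcl2a1d counts (y axis, percent) given to each copy, 1 point per library, 5 per group; bars are means and whiskers 1 SD. The Bcl2a1a share is higher with LPS, at 34.5% to 48.3% against 17.5% to 30.1% in tdT- dCAMs and at 40.235% to 53.0% against 6.45% to 40.173% in tdT+ dCAMs.

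Among the well-measured genes, those whose log2 CPM followed a called member most closely over the 20 libraries were listed, as a description in which the 4 groups and the depth of the libraries are shared. For Bcl2a1a they were Gadd45a, a stress-response gene (Pearson r = 0.917), Plac8 (r = 0.875) and Dusp2, a phosphatase of MAP kinases (r = 0.871). Gadd45a averaged 2.92 CPM in tdT+ CTL and 48.1 CPM in tdT- CTL, and Plac8 is among the monocyte markers above. For Bcl2l1 they were Hcls1 (r = 0.958), Il6st, which encodes the gp130 receptor subunit (r = 0.953), and Akap7 (r = 0.952). Il6st averaged 62.9 CPM in tdT+ CTL and 423 CPM in tdT+ LPS. For Bax they were Mrpl33 (r = 0.891), Chd2 (r = 0.888) and Tagln2 (r = 0.875).

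The rest of the pathway was taken as 58 genes in 7 lists, of which 54 were tested. With LPS, 2 rose in tdT- dCAMs (Mlkl and Bcl2l14) and 2 in tdT+ dCAMs (Mlkl and Cycs), and none fell, against 7.2% (tdT-) and 3.37% (tdT+) of all genes called higher and 4.27% and 2.52% called lower. In CTL mice 1 gene, Mlkl, was called higher in tdT+ than in tdT- dCAMs, in LPS mice none was called (2 of 54 had an unadjusted p under 0.05 with edgeR, and DESeq2 called 0), and Mlkl was the only gene called in the interaction, as the smaller rise in tdT+ dCAMs. The median log2 fold change of the 54 genes with LPS was 0.25 in tdT+, against 0.01 over all genes tested, and 0 in tdT- dCAMs, or -0.05 with genes at or near 0 in 1 group set to their bound, against 0.02. Counts in these lists moved widely with the fit, from 1 to 14 in tdT- and from 0 to 9 in tdT+ dCAMs with LPS. With the mouse as a random block in limma-voom they were 14 in tdT- dCAMs with LPS and 6 between the populations of CTL mice. Without any 1 of the 5 LPS mice, the tdT+ count was 0 and the tdT- count 1.

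Cycs encodes cytochrome c, the protein that Bax and Bak1 pores let out. It averaged 17.6 ± 3.92 CPM in tdT+ CTL and 47.2 ± 5.83 CPM in tdT+ LPS (SD, n = 5 each), without overlap (log2 fold change 1.42 ± 0.38 (SE), adjusted p = 0.0224). The other 8 genes of the mitochondrial step, Apaf1 and the Vdac channels among them, gave no call. Mlkl encodes the executioner of necroptosis, a death route outside the Bcl2 family. In CTL mice it had 1 count in all in the 5 tdT- libraries and 284 in the 5 tdT+ libraries, and in LPS mice 4420 and 5567. The rise with LPS in tdT+ dCAMs had a log2 fold change of 3.66 ± 1.04 (SE) (adjusted p = 0.0356). In tdT- dCAMs the ratio of summed levels was 2607, with a counting interval of 468 to 102980 (95%, counting error only; adjusted p = 5.63e-05), and in CTL mice the tdT+ to tdT- ratio was 245, with an interval of 43.5 to 9695 (adjusted p = 0.00340). Of the tdT+ CTL libraries 3 of 5 held more than 3 counts of Mlkl, and the interaction had an adjusted p of 0.0361. The interaction call was lost without CTL mouse 175, 177 or 178 or any 1 LPS mouse. The group with 1 count, tdT- CTL, is the one with 1.72% to 14.9% of well-measured genes at 3 counts or fewer. Bcl2l14, a family member of unsettled function, was at 0 counts in all tdT- CTL libraries and at 0.970 to 8.91 CPM in tdT- LPS, with 145 of its 248 counts in 1 library, at least 48.8-fold higher against a floor of 3 counts over the group (adjusted p = 0.0467). Birc3, an inhibitor of apoptosis that NF-kB is known to induce, was named after its values were seen: it passed the adjusted p in tdT+ dCAMs (0.0108) under the fold limit, with a log2 fold change of 0.94 ± 0.22 (SE).

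Of the other Bcl2 family genes with a mean of at least 10 CPM, none was called. Pmaip1, which encodes the Mcl1 antagonist NOXA, averaged 394 ± 169 (tdT-) and 192 ± 75.5 (tdT+) CPM in CTL mice and 208 ± 73.9 (tdT-) and 93.5 ± 15.1 (tdT+) in LPS mice, with a log2 fold change of -1.04 ± 0.34 (SE) (adjusted p = 0.0773) with LPS in tdT+ and -0.92 ± 0.34 (SE) (0.0768) in tdT- dCAMs. Its tdT+ and tdT- groups did not overlap in LPS mice. Bcl2, the founding pro-survival gene, averaged 12.3 ± 5.17 CPM in tdT+ CTL and 5.37 ± 2.82 in tdT+ LPS, and ranged from 0.110 to 200.1 CPM in tdT- CTL (log2 fold change with LPS -1.20 ± 1.15 (SE) in tdT+ and -2.46 ± 1.19 (SE) in tdT- dCAMs). Bad and Bmf, both BH3-only genes, had log2 fold changes with LPS in tdT+ of -0.17 ± 0.79 (SE) and 0.48 ± 1.01 (SE). The mitophagy receptors Bnip3, Bnip3l and Bcl2l13 had 1.17 ± 0.99 (SE), -0.80 ± 0.33 (SE) and 1.01 ± 0.93 (SE), each with groups that did not overlap and adjusted p of 0.615, 0.180 and 0.661. No gene of the caspase list (6 tested), the Mcl1 turnover list (4 tested) or the list of transcription factors of BH3-only genes (5 tested) was called in any of the 5 contrasts.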

How the data were processed

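Total RNA of sorted dCAMs was amplified by PCR with SMART-Seq chemistry without molecular identifiers, so counting intervals cover counting error only. Per the labels, the authors used bcl2fastq 2.20, STAR 2.7.11a and featureCounts 2.0.6, and the deposited values are raw counts per gene symbol, used as deposited. The methods name more than one mouse build by date of experiment, so the build of this table is not settled, and the treatment of reads that map to several places is not given in the sources used here. Coordinates and lengths are from GENCODE M21 (GRCm38), and promoter windows from RefSeq (GRCm38.p6, 10 of 10 members matched); they serve to describe the loci.

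Genes with at least 10 counts over the 20 libraries were kept (16632 of 33243), scaled by TMM and fitted in edgeR 4.0.16 (R 4.3.3) by the quasi-likelihood test with 1 mean per group; p-values were adjusted by the Benjamini-Hochberg method over all genes, and a call needed an adjusted p under 0.05 and a log2 fold change over 1 in size. All 4 groups shared 1 estimate of the spread of a gene, so standard errors and intervals also take in libraries outside the contrast. The standard error is the log2 fold change divided by the root of F. CPM are TMM-scaled. Alternatives were DESeq2 1.42.0, limma-voom 3.58.1, other filters and scalings, thinning to 6017650 counts, sex as a covariate, the mouse as a block, leaving out each mouse, and 1 setting added after the data were seen (2 tdT- CTL libraries left out). The step was tested on simulated data. The tdT+ and tdT- libraries of a mouse pair by animal; their deviations from group means correlated at -0.0046 to 0.0461 in CTL and 0.229 to 0.449 in LPS mice. Named were all members, pathway genes called in a contrast, other family genes with a mean of at least 10 CPM and the 3 nearest genes of each member called with LPS. The members and lists were chosen with earlier results of these data known. 1 marker gene is not reported here.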

Additional observations from a re-analysis of the deposited data

Results flagged for a closer look

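Of 44 groups of 5 libraries checked (10 members and the summed Bcl2a1 copies in 4 groups), 4 held a library far from the others by Dixon's test at the 95% level, which flags about 1 group in 20 by chance. Bcl2l1 was at 9.03 CPM in the tdT- CTL library of mouse 179, against 69.5 to 156 CPM in the other 4. Bid was at 0 CPM in the tdT- CTL library of mouse 178, against 31.95 to 94.98 CPM. Bax was at 278 CPM in the tdT- CTL library of mouse 178, against 87.1 to 118 CPM. Bcl2l11 was at 8.85 CPM in the tdT+ LPS library of mouse 61, against 24.3 to 34.0 CPM. No member's response to LPS was shown to differ between tdT+ and tdT- dCAMs by the interaction test.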

How the results depend on the processing

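Of 1391 values under alternatives for 65 results, 1265 kept their direction and their side of the threshold (counts: within 1.5 times), and no called member turned its direction. Bcl2a1a and Bcl2l1 kept their call with LPS in tdT+ dCAMs under every alternative run. Member calls with LPS in tdT- dCAMs were 0, against 2 with DESeq2, 1 with limma-voom, 1 with the replicate block as a random effect, and 0 to 1 without 1 mouse (1 without CTL mouse 175, 178 or 179). In CTL mice tdT+ against tdT- gave 3 calls, 1 with the mouse as a fixed replicate block, 0 when the CTL libraries were fitted alone, and 1 to 3 without 1 mouse; Bcl2a1a also lost its call with no filter (adjusted p = 0.0620). The interaction gave 0 member calls and 1 without the tdT- CTL libraries of mice 174 and 179. The fixed block cannot give the LPS contrasts, in which each mouse has 1 treatment. The summed copies in tdT+ dCAMs with LPS were called on the adjusted p alone (0.95) and ranged from 0.87 to 1.01 without 1 mouse; in tdT- dCAMs the range was -0.059 (without LPS mouse 61) to 0.24. In CTL mice they fell short of a call in the fit to CTL libraries alone (-1.52). Pathway calls moved most. With LPS in tdT- dCAMs they were 2, against 7 with DESeq2, 14 with limma-voom with or without the random replicate block, 1 with no filter, 4 with filterByExpr, 5 without the libraries of mice 174 and 179, and 1 to 6 without 1 mouse (6 without CTL mouse 174, 4 without 175 or 179, 1 without any LPS mouse). In tdT+ dCAMs they were 2, against 5 with DESeq2, 1 with no filter, 9 fitted alone, 1 with sex, 6 without those 2 libraries, and 0 to 5 without 1 mouse (5 without CTL mouse 174, 1 without 177 or 178). Between populations in CTL mice they were 1, against 5 with DESeq2, 6 with limma-voom with or without the random block, 0 fitted alone, 3 without those libraries, and 1 to 3 without 1 mouse (3 without CTL mouse 174 or 175, 2 without 177 or 178). In LPS mice they were 0, and 1 fitted alone. The interaction gave 1, 2 with the random block, and 0 to 1 without 1 mouse (0 without CTL mouse 175, 177 or 178 or any LPS mouse). The cause of these shifts was not tested.

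The uncalled log2 fold changes that turned direction were as follows. In limma-voom without and with the random replicate block, tdT+ against tdT- in CTL mice turned to 0.15 and 0.16 for Bcl2l1 and to 1.72 and 1.73 for Bid, LPS in tdT- dCAMs to 0.38 and 0.37 for Bcl2l11, to 0.99 and 0.99 for Bid and to 0.048 and 0.048 for Bak1, and the interaction to -1.67 and -1.67 for Bid. With the fixed replicate block, Bcl2l1 and Bid in CTL mice turned to 0.21 and 0.38, and the Bid interaction to -0.32. Without the tdT- CTL libraries of mice 174 and 179, Bbc3 and Bid in CTL mice turned to -0.24 and 0.40, the Bid interaction to -0.37, and Bax with LPS in tdT- dCAMs to -0.23. Without 1 mouse, the ranges that crossed 0 were -0.35 to 0.41 for Bcl2l1 in CTL mice, -0.51 to 0.25 for Bcl2l11 with LPS in tdT- dCAMs, -0.26 to 0.84 for Bbc3 in CTL mice, -0.40 to 0.18 for Bid in CTL mice, -0.021 to 0.11 for Bid in LPS mice, -0.16 to 0.45 for Bid in the interaction, -0.057 to 0.52 for Bax with LPS in tdT- dCAMs and -0.14 to 0.17 for Bak1 in LPS mice. Depth and the many genes at 3 counts or fewer in tdT- CTL limit every contrast that uses those libraries.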
